A study of Mus musculus with 15 samples.

Results

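Hepcidin and the genes that set its level through bone morphogenetic protein (BMP) signalling were described across hepatocytes of WT and ΔEGFR mice given mineral oil or CCl4. The set was chosen by name and held 10 of the 56953 genes in the files: Hamp, Hamp2, Bmp2, Bmp6, Tfr2, Tmprss6, Id1, Smad6, Smad7 and Bambi. Each of the 10 passed the filter on low counts. The data were messenger RNA levels from 15 libraries of primary mouse hepatocytes, in a design of genotype by treatment. WT mice contributed 4 libraries after mineral oil and 3 after CCl4, and ΔEGFR mice contributed 4 after each treatment. Mineral oil is the usual carrier of CCl4 (carbon tetrachloride), a toxin that hepatocytes convert to a reactive radical and that scars the liver when given repeatedly. The series places its question in the EGFR pathway and the fibrotic liver. The labels gave no strain, sex, age, dose, duration, number of animals or ΔEGFR construct, so nothing further is stated of the groups, and each p-value rests on the spread between libraries of a group, which may in part be technical.

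Hepcidin, the product of Hamp, is a peptide hormone made mainly by hepatocytes that binds the iron exporter ferroportin and causes its removal, which lowers the entry of iron into plasma. In the liver, sinusoidal endothelial cells release BMP2 and BMP6, hepatocyte receptors with the co-receptor hemojuvelin pass the signal to SMAD1, SMAD5 and SMAD8, and these act on the Hamp promoter together with SMAD4. TFR2 and HFE sense iron-loaded transferrin and add to this signal, TMPRSS6 (matriptase-2) cuts hemojuvelin and reduces it, and Id1, Smad6, Smad7 and Bambi are targets of the same pathway, the last 3 of which encode its inhibitors. Inflammation raises hepcidin by a separate route, through IL-6 and STAT3.

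The promoters of the hepcidin pair are shown because the 2 genes had very different levels and because a known BMP element and a known STAT element of hepcidin lie close to the start. Elements farther upstream were not searched. The RefSeq (GRCm38.p6) windows searched left out 1 chromosome and covered 5 of the 10 genes. The last 250 bases before the start are printed 5′ to 3′, from chr7:30944030-30944279 (minus strand) for Hamp and from chr7:30924182-30924431 (minus strand) for Hamp2. Capitals mark the letters GGCGCC, the core of a BMP-responsive element, or the Hamp2 letters aligned with them, and the match to TTCNNNGAA, the form of a STAT site.
Hamp: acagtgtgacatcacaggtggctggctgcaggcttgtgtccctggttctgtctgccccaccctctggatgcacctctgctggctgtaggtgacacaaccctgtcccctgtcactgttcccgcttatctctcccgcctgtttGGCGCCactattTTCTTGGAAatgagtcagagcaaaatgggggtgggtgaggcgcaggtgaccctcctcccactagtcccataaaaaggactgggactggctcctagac
Hamp2: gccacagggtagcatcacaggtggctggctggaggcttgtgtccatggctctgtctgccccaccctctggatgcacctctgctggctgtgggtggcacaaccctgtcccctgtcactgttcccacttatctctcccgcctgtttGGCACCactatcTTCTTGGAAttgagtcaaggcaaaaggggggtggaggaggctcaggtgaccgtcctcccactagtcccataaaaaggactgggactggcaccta
The windows were identical at 227 aligned bases (90.8% of 250), with 20 mismatches and 3 Hamp bases in gaps. Hamp held GGCGCC from base 109 to base 104 before its start. At the aligned place, from base 106 before its start, Hamp2 read GGCACC, the substitution G4A with positions counted from 1 at the 5′ end of GGCGCC and the base of Hamp first. Both held TTCTTGGAA, from base 97 to base 89 in Hamp and from base 94 to base 86 in Hamp2. GGCGCC occurred in 9.59% of the 32851 RefSeq mouse windows searched, each of this length, and TTCNNNGAA in 7.02%. Of the E-box letters CACGTG, found in 6.02% of windows, the only match among these 5 genes was in Bmp6, from base 127 to base 122 before the start. Each motif is its own reverse complement, so 1 search covered both strands, and the motifs do not overlap each other. A match is a string of letters in this window and not a measured binding site. Whether these letters bear on the levels of Hamp and Hamp2 was not tested.

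Total counts, in megacounts (M), ran from 51.7 to 61.9 M in 6 libraries and from 96.2 to 155.4 M in 9. The shallow libraries were WT mineral oil replicates 2, 3 and 4, WT CCl4 replicates 1 and 2 and ΔEGFR CCl4 replicate 3. The 8 hepatocyte markers summed to at least 49700 CPM (counts scaled to a library of 1 M by TMM factors) in every library, with Alb at 33400 to 116000 CPM. Markers of other liver cells were also present: sinusoidal endothelial markers summed to 67.2 to 801 CPM in WT mineral oil 240 to 450 in ΔEGFR CCl4, 129 to 459 in WT CCl4 and 86.7 to 408 in ΔEGFR mineral oil. Macrophage markers summed to 86.6 to 1630 CPM in WT mineral oil and 1480 to 3570 in WT CCl4, and to 31.1 to 835 CPM in ΔEGFR mineral oil and 1470 to 3550 in ΔEGFR CCl4. All 10 macrophage markers had a positive log2 fold change with CCl4 in both genotypes (median 1.65 in WT and 2.46 in ΔEGFR), and 1 of the 10 was called higher in WT and 0 in ΔEGFR. WT mineral oil replicate 1 stood apart with the highest endothelial sum (801 CPM) and the highest neutrophil sum (1440 CPM, against 1.4 to 232 in the other libraries).

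Per length, in TPM (transcripts scaled to a library total of 1 M), Hamp was the most abundant of the 10 genes, at a mean of 2530 TPM over the 15 libraries (range 548 to 6080), and ranked from 21 to 213 among all genes of a library. Tmprss6 (mean 210 TPM, range 120 to 340) and Tfr2 (196 TPM, 103 to 291) followed, with overlapping ranges that did not reach those of Hamp. Id1 (35 TPM, 1.5 to 102) and Hamp2 (29 TPM, 3.65 to 104) overlapped each other. The lower levels were those of Smad7 (8.8 TPM, 3.35 to 14), Bmp2 (8.08 TPM, 1.41 to 25.4), Smad6 (5.11 TPM, 1.06 to 12.5), Bmp6 (2.28 TPM, 0.47 to 6.32) and Bambi (0.93 TPM, 0.23 to 2.3), and each neighbouring pair in this order overlapped. Bambi, the lowest, still had at least 48 counts in each library.

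**Figure D1:**
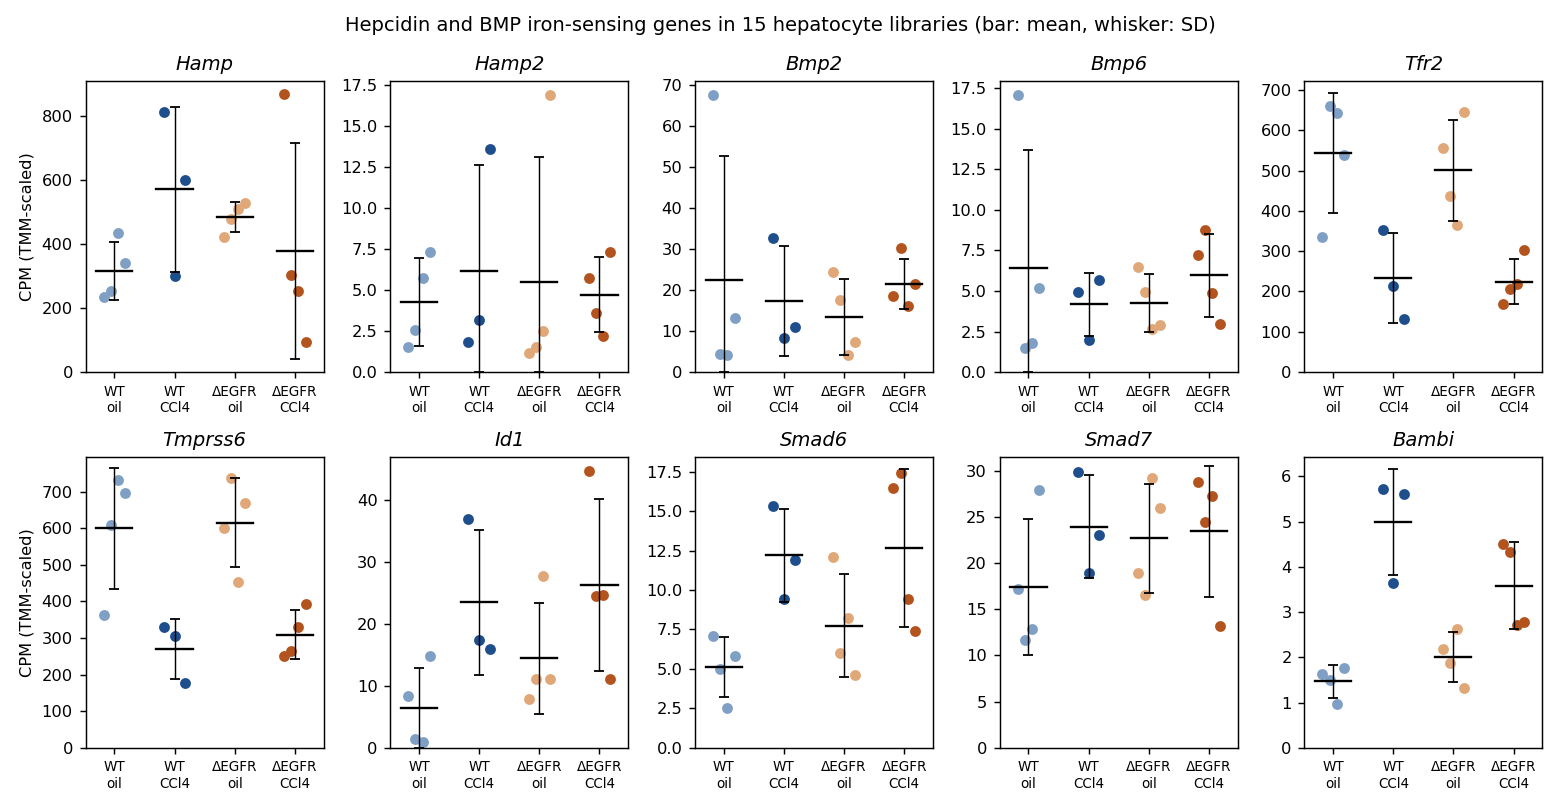
TMM-scaled CPM (vertical axes) of the 10 genes in the 4 groups of libraries; each point is a library, the bar is the group mean and the whisker is 1 SD, cut at 0. Tmprss6 and Bambi separate mineral oil from CCl4 in both genotypes, and Bmp2 has 1 WT mineral oil library at 67.7 CPM.

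With CCl4 in WT mice, the hepatocyte iron sensor Tfr2 and the protease Tmprss6 fell and the decoy receptor Bambi rose, while Hamp itself did not pass the test. These were 3 of the 10 genes, 1 called higher and 2 called lower, by edgeR's quasi-likelihood test at a Benjamini-Hochberg adjusted p under 0.05. Of all 17975 genes tested, 12.5% were called, 5.31% higher and 7.20% lower. The groups did not overlap in CPM for 4 of the 10 genes (Tmprss6, Id1, Smad6 and Bambi), and for 24.1% of all genes tested. With CCl4 in ΔEGFR mice none of the 10 was called by edgeR, 3 had an unadjusted p under 0.05 (Tfr2, Tmprss6 and Bambi), and 4.15% of all genes were called, 1.77% higher and 2.38% lower. These 3 genes were also those whose ΔEGFR groups did not overlap, as was the case for 21.6% of all genes. DESeq2 called all 3, among 7.84% of the 30606 genes with a p-value. Those genes had no low-count filter, and any without an adjusted p counted as not called. The share may thus understate that among genes that could be called. The median log2 fold change of the 10 genes was 0.50 in WT and 0.27 in ΔEGFR, beside −0.03 and −0.02 over all genes tested.

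**Figure D2:**
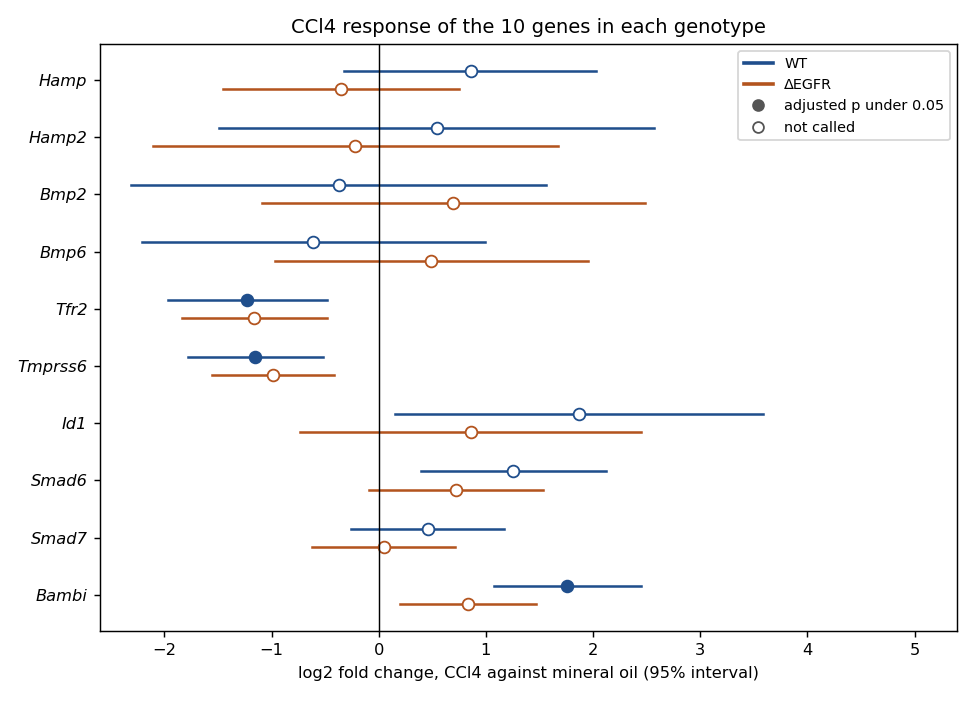
Log2 fold change of CCl4 against mineral oil (horizontal axis) with its 95% interval for the 10 genes, blue for WT and orange for ΔEGFR; filled points passed an adjusted p of 0.05. Tfr2, Tmprss6 and Bambi in WT are filled, and the 2 intervals of each gene overlap.

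Hamp, the hepcidin gene, measured 235, 252, 435 and 339 CPM in WT mineral oil replicates 1 to 4 and 812, 299 and 600 CPM in WT CCl4 replicates 1 to 3. In ΔEGFR it measured 420, 477, 509 and 527 CPM with mineral oil and 867, 302, 254 and 93.7 CPM with CCl4. The WT groups overlapped, and the ΔEGFR mineral oil libraries lay close together (483 ± 47 CPM, SD, n = 4) inside the range of the CCl4 group (379 ± 337 CPM, SD, n = 4). With CCl4 the log2 fold change of Hamp was 0.86 ± 0.54 (SE) in WT, with a 95% interval from −0.32 to 2.03 (adjusted p = 0.322), and −0.35 ± 0.51 in ΔEGFR, from −1.45 to 0.75 (adjusted p = 0.7). The difference between these 2 responses, tested as an interaction, was −1.21 ± 0.75, from −2.81 to 0.40 (adjusted p = 1). With a library left out the interaction ran from −2.01 (without ΔEGFR CCl4 replicate 1) to −0.90 (without WT CCl4 replicate 1 or ΔEGFR CCl4 replicate 4). Neither response passed the test, and the ΔEGFR value moved to 0.03 without ΔEGFR CCl4 replicate 4, the library with the lowest Hamp, to −1.16 without ΔEGFR CCl4 replicate 1, the library with the highest Hamp (adjusted p = 0.145), and to 0.18 without a scaling factor between libraries. ΔEGFR CCl4 replicates 1 and 4 were the highest and the lowest Hamp libraries of the whole set, at 867 and 93.7 CPM, although they bear the same label.

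Hamp2, the second mouse hepcidin gene, measured 1.5, 2.58, 5.73 and 7.29 CPM in WT mineral oil and 1.82, 3.15 and 13.6 CPM in WT CCl4. ΔEGFR libraries gave 1.14, 1.5, 2.49 and 16.9 CPM with mineral oil and 5.73, 3.61, 2.22 and 7.34 CPM with CCl4. The groups overlapped throughout, with log2 fold changes of 0.54 ± 0.94 in WT (adjusted p = 0.742) and −0.22 ± 0.88 in ΔEGFR (adjusted p = 0.901) for CCl4. The ΔEGFR value was 1.47 without ΔEGFR mineral oil replicate 4, which held the 16.9 CPM, and the WT value was −0.72 without WT CCl4 replicate 3. As a share of the TPM of both genes, Hamp2 made up 0.213% in WT CCl4 replicate 1 and 6.99% in ΔEGFR CCl4 replicate 4, the lowest and the highest values, and Hamp was 13.3 to 468 times as abundant as Hamp2. Hamp and Hamp2 are related genes with non-whole expected counts in these libraries, as arise when RSEM divides reads between genes, so the Hamp2 values are uncertain. Hamp and Hamp2 did not vary together over the 15 libraries (Pearson r of log2 CPM 0.05, as a description).

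**Figure D3:**
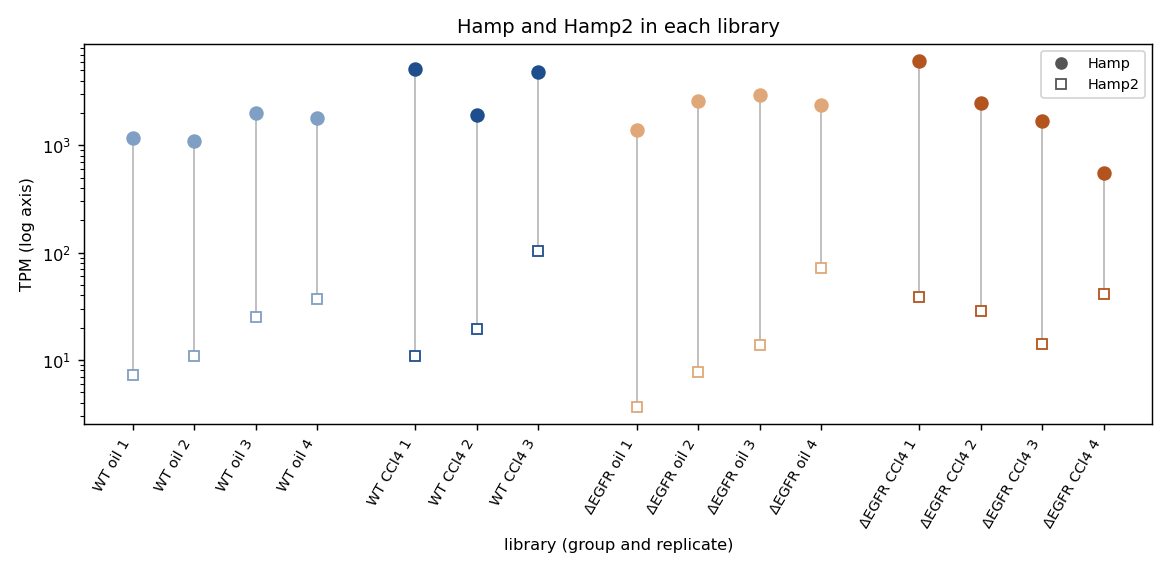
TPM on a log axis for Hamp (filled circles) and Hamp2 (open squares) in each of the 15 libraries, joined by a line and coloured by group. Hamp lies above Hamp2 in every library, and the gap is narrowest in ΔEGFR CCl4 replicate 4, where Hamp was 548 TPM.

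The ligands come next. Bmp2, an endothelial ligand of the pathway, measured 67.7, 4.48, 4.07 and 13.2 CPM in WT mineral oil and 32.7, 8.31 and 11.1 CPM in WT CCl4. For ΔEGFR the values were 24.4, 17.6, 4.23 and 7.27 CPM with mineral oil and 18.5, 30.2, 16.2 and 21.4 CPM with CCl4. The groups overlapped, and WT mineral oil held both the lowest and the highest library of the 15. Without its replicate 1 that group ran from 4.07 to 13.2 CPM. The log2 fold change with CCl4 was −0.37 ± 0.90 in WT (95% interval −2.31 to 1.56, adjusted p = 0.817) and 0.69 ± 0.83 in ΔEGFR (−1.09 to 2.48, adjusted p = 0.635). Without WT mineral oil replicate 1 the WT value was 1.25.

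Bmp6, the ligand known for its response to liver iron, measured 17.1, 1.46, 1.82 and 5.18 CPM in WT mineral oil and 4.93, 1.97 and 5.66 CPM in WT CCl4. In ΔEGFR mice Bmp6 was at 6.47, 4.95, 2.65 and 2.93 CPM with mineral oil and 7.21, 8.77, 4.88 and 2.99 CPM with CCl4. Again the groups overlapped and WT mineral oil replicate 1 was the highest library. The log2 fold change with CCl4 was −0.61 ± 0.74 in WT (adjusted p = 0.623) and 0.49 ± 0.68 in ΔEGFR (adjusted p = 0.687), and the WT value was 0.57 without that library.

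Both ligands moved with markers of sinusoidal endothelial cells. Over the 15 libraries the log2 CPM of Bmp2 and the mean log2 CPM of 10 endothelial markers (Stab2, Lyve1, Clec4g, Oit3, Gpr182, Dnase1l3, Kdr, Pecam1, Cdh5 and Tek) had a Pearson r of 0.98 and a Spearman rho of 0.99. Each had a permutation p of 0.00001, the smallest that 100000 permutations can give, and an adjusted p of 0.0001 over the 10 genes compared. The r of Bmp2 was 0.97 without the 2 libraries farthest from the median (WT mineral oil replicates 2 and 3), 0.98 for deviations from the group means, 0.99 among the 6 shallow libraries and 0.97 among the 9 deep ones. For Bmp6 the r was 0.86 (permutation p = 7e-05, adjusted p = 0.00035) and the rho 0.80 (permutation p = 0.00068, adjusted p = 0.0034). The r of Bmp6 was 0.79 without the same 2 libraries, 0.87 within groups, 0.90 among the shallow libraries and 0.82 among the deep ones. Smad6, which is also expressed in endothelium, had an r of 0.63 (adjusted permutation p = 0.0382) and a rho of 0.61 (adjusted permutation p = 0.0585), and its r was 0.40 without the same 2 libraries, 0.66 within groups, 0.84 among the shallow libraries and 0.38 among the deep ones. Without WT mineral oil replicate 1 the r was 0.98 for Bmp2, 0.82 for Bmp6 and 0.76 for Smad6 (n = 14 libraries). None of the other 7 genes passed, and Hamp had an r of −0.13 (adjusted permutation p = 0.646).

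Relative to the endothelial markers the level of Bmp2 varied less than by itself. Bmp2 was 4.59 to 8.45 CPM per 100 CPM of the 10 markers, a 1.84-fold range, where its CPM had a 16.6-fold range and the markers an 11.9-fold range. Without WT mineral oil replicate 1, chosen after the data were seen, these ranges were 1.83-fold, 8.03-fold and 6.82-fold over 14 libraries. This ratio was 5.28 to 8.45 in WT mineral oil, 5.77 to 7.12 in WT CCl4, 4.59 to 8.38 in ΔEGFR mineral oil and 6.51 to 6.87 in ΔEGFR CCl4, so the groups overlapped. Bmp6 was 0.91 to 3.39 CPM per 100 CPM of the markers, a 3.72-fold range beside 11.7-fold in CPM, and without that library the 2 ranges were 3.72-fold and 6.01-fold. In bulk RNA, fewer cells of a type and less RNA per cell cannot be told apart, and how much of Bmp2 or Bmp6 came from endothelial cells was not tested.

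**Figure D4:**
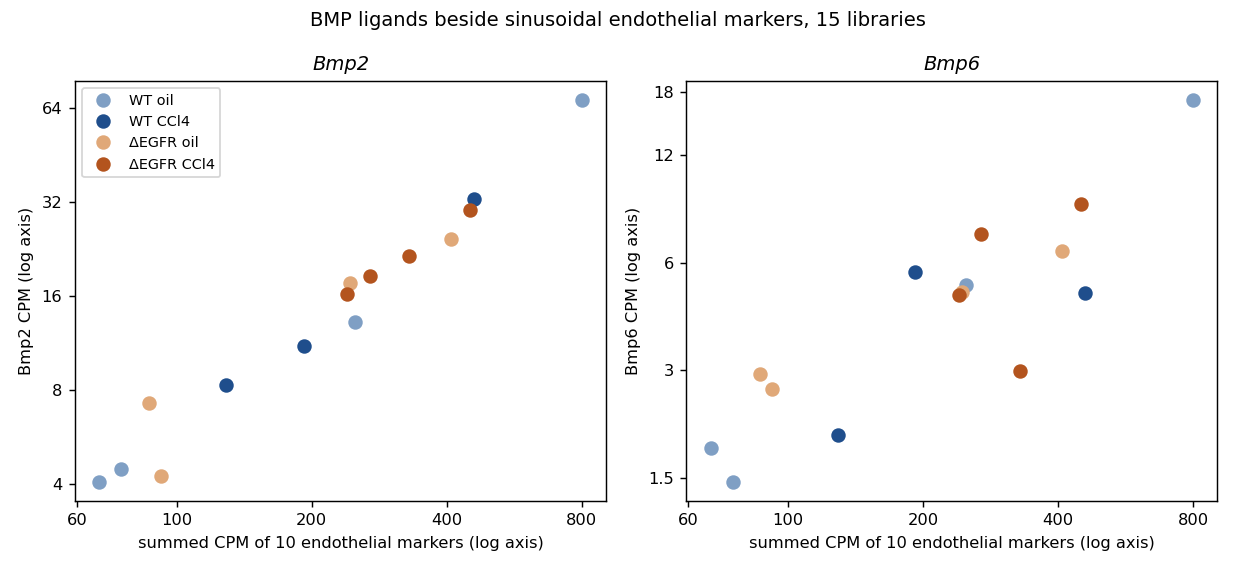
CPM of Bmp2 (left) and Bmp6 (right) against the summed CPM of 10 sinusoidal endothelial markers, both on log axes, with 1 point per library coloured by group. The points of the 4 groups lie along 1 line for Bmp2, and WT mineral oil replicate 1 is the highest point in both panels, at a marker sum of 801 CPM.

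Of the iron sensors, Tfr2 (ENSMUSG00000029716), the transferrin receptor that hepatocytes use to read iron-loaded transferrin, measured 336, 660, 644 and 539 CPM in WT mineral oil and 353, 214 and 132 CPM in WT CCl4. ΔEGFR libraries held 557, 436, 365 and 646 CPM with mineral oil and 169, 206, 219 and 302 CPM with CCl4. Every CCl4 library lay below every mineral oil library except for WT mineral oil replicate 1, which lay under WT CCl4 replicate 1. The mean fell 2.34-fold in WT, from 545 ± 149 (SD, n = 4) to 233 ± 112 CPM (SD, n = 3), with a log2 fold change of −1.23 ± 0.35 (edgeR adjusted p = 0.0365). The ΔEGFR estimate was of like size, −1.16 ± 0.31, but did not pass (edgeR adjusted p = 0.055). The interaction was 0.06 ± 0.46 with a 95% interval from −0.92 to 1.05. The WT call was lost without WT mineral oil replicate 2 (adjusted p = 0.0923), replicate 3 (0.0874) or replicate 4 (0.0581) and without WT CCl4 replicate 2 (0.122) or replicate 3 (0.153), while the ΔEGFR difference passed without ΔEGFR mineral oil replicate 3 (0.0456) or ΔEGFR CCl4 replicate 4 (0.0498).

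Tmprss6 (ENSMUSG00000016942), the protease that cuts hemojuvelin, measured 364, 610, 731 and 696 CPM in WT mineral oil and 330, 304 and 176 CPM in WT CCl4. The ΔEGFR libraries measured 600, 737, 454 and 669 CPM with mineral oil and 250, 264, 329 and 394 CPM with CCl4. The treatments did not overlap in either genotype. It fell 2.22-fold in WT, from 600 ± 166 (SD, n = 4) to 270 ± 82.3 CPM (SD, n = 3), with a log2 fold change of −1.15 ± 0.29 (edgeR adjusted p = 0.0238). In ΔEGFR the estimate was −0.99 ± 0.26 (edgeR adjusted p = 0.0523), and the interaction was 0.16 ± 0.39, from −0.67 to 0.99. The WT call was lost without WT mineral oil replicate 2 (adjusted p = 0.0559) or replicate 3 (0.064) and without WT CCl4 replicate 2 (0.0585) or replicate 3 (0.107), and the ΔEGFR difference passed without ΔEGFR mineral oil replicate 3 (0.0398) or ΔEGFR CCl4 replicate 4 (0.0472).

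Tfr2 and Tmprss6 varied together, with a Pearson r of 0.95 over the 15 libraries and 0.85 for deviations from the group means, given as a description. General hepatocyte genes were lower in the same libraries: each of the 8 hepatocyte markers had a negative log2 fold change with CCl4 in both genotypes (median −0.88 in WT and −0.58 in ΔEGFR), and 3 of the 8 (Cps1, Hnf4a and Apob) were called lower in WT and 1 of the 8 (Cps1) in ΔEGFR. With the markers of other cells as a covariate, Tfr2 in WT was −0.91 (adjusted p = 0.113) and Tmprss6 −0.91 (adjusted p = 0.0745). This covariate was a score for each library, the mean log2 CPM over endothelial, macrophage, stellate, cholangiocyte, T and NK, B cell and neutrophil markers. With CCl4 in WT the median log2 fold change of these lists ran from −1.45 (T and NK) to 1.65 (macrophage). A pooled score therefore cannot adjust for each cell type by itself. Beyond this covariate, the part of those cells was not tested. With limma on log2(TPM + 1) the WT values were −0.76 for Tfr2 (adjusted p = 0.0557) and −0.64 for Tmprss6 (0.0952), and with only the WT groups in the edgeR fit the adjusted p was 0.124 and 0.0961, so both calls were lost. Without WT mineral oil replicate 1, the library with the most markers of other cells, the values were −1.40 for Tfr2 (edgeR adjusted p = 0.0121) and −1.33 for Tmprss6 (0.00603).

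Among the targets, Id1, an inhibitor of helix-loop-helix transcription factors and a standard readout of BMP signalling, measured 8.32, 1.41, 0.998 and 14.8 CPM in WT mineral oil and 36.9, 17.4 and 16 CPM in WT CCl4. In ΔEGFR it was 7.82, 11.1, 27.7 and 11.1 CPM with mineral oil and 44.7, 24.4, 24.6 and 11.1 CPM with CCl4. The WT groups did not overlap and the ΔEGFR groups did. The log2 fold change with CCl4 was 1.87 ± 0.80 in WT (95% interval 0.15 to 3.59, adjusted p = 0.139) and 0.86 ± 0.74 in ΔEGFR (−0.73 to 2.45, adjusted p = 0.49), and neither passed in edgeR. The WT difference passed in 2 of 19 alternatives, limma on log2(TPM + 1) (adjusted p = 0.0323) and on log2(TPM + 0.1). In these the median over all genes was itself 0.38 and 0.52. Over the 19 the adjusted p ran from 0.0323 to 0.34, and 0 of the 7 fits with a library left out passed.

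Bambi (ENSMUSG00000024232), a decoy receptor without a kinase domain that dampens BMP and TGF-β signals, measured 1.64, 1.5, 0.958 and 1.77 CPM in WT mineral oil and 5.73, 3.64 and 5.62 CPM in WT CCl4. For ΔEGFR libraries Bambi was 2.18, 1.88, 2.63 and 1.33 CPM with mineral oil and 4.50, 4.32, 2.71 and 2.79 CPM with CCl4. All 7 CCl4 libraries lay above all 8 mineral oil libraries. It rose 3.4-fold in WT, from 1.47 ± 0.358 (SD, n = 4) to 5 ± 1.18 CPM (SD, n = 3), with a log2 fold change of 1.76 ± 0.32 (edgeR adjusted p = 0.00638). In ΔEGFR the estimate was 0.83 ± 0.29 (edgeR adjusted p = 0.112). The difference between these responses was −0.93 ± 0.43, with an unadjusted p of 0.049 and an edgeR adjusted p of 1, so it did not pass over all genes. The WT call held with each library left out in turn (log2 fold change 1.60 to 2.03, adjusted p 0.00542 to 0.0345), and was lost among the shallow WT libraries alone (1.73, adjusted p = 0.0796). With the markers of other cells as a covariate Bambi was 1.53 (edgeR adjusted p = 0.0159) in WT and 0.59 (0.415) in ΔEGFR. This pooled score cannot adjust for macrophages or stellate cells by themselves, and beyond it the part of those cells in Bambi was not tested.

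Smad6, an inhibitory SMAD induced by BMP, measured 7.09, 5.02, 2.53 and 5.82 CPM in WT mineral oil and 15.3, 9.40 and 11.9 CPM in WT CCl4. ΔEGFR libraries had 12.1, 5.98, 8.23 and 4.62 CPM with mineral oil and 16.5, 17.4, 9.46 and 7.40 CPM with CCl4. The WT groups did not overlap, the log2 fold change was 1.25 ± 0.40 and the adjusted p was 0.0577. With each library left out in turn the value was 1.02 to 1.49 and the adjusted p 0.0271 to 0.152, under the threshold only without WT mineral oil replicate 1. With the markers of other cells as a covariate it was 0.86 (adjusted p = 0.153) in WT and 0.29 (0.776) in ΔEGFR, and beyond this the part of those cells was not tested. The ΔEGFR groups overlapped, with a log2 fold change of 0.72 ± 0.38 (adjusted p = 0.253). Smad6 varied with Bambi (Pearson r 0.90 over the 15 libraries, 0.88 within groups).

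Smad7, the other inhibitory SMAD of the set, measured 17.2, 11.7, 12.9 and 27.9 CPM in WT mineral oil and 29.9, 18.9 and 23.1 CPM in WT CCl4. In ΔEGFR mice Smad7 reached 18.9, 16.6, 29.2 and 26.0 CPM with mineral oil and 28.8, 24.5, 27.3 and 13.2 CPM with CCl4. The groups overlapped, and the log2 fold changes with CCl4 were 0.46 ± 0.33 in WT (adjusted p = 0.387) and 0.05 ± 0.31 in ΔEGFR (adjusted p = 0.939). Smad7 varied with Id1 (Pearson r 0.83 over the 15 libraries, 0.84 within groups) and less with Hamp (0.57 and 0.59). Hamp and Id1 had an r of 0.30 (0.33 within groups).

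The genotypes were compared within each treatment. Depth went largely with genotype: WT mineral oil replicates 2, 3 and 4 and WT CCl4 replicates 1 and 2 were shallow. All ΔEGFR libraries but CCl4 replicate 3 were deep, so genotype and depth cannot be fully told apart. With mineral oil the ΔEGFR against WT log2 fold change was 0.62 ± 0.51 for Hamp, 1.17 ± 0.74 for Id1, 0.59 ± 0.38 for Smad6, 0.45 ± 0.29 for Bambi and −0.75 ± 0.83 for Bmp2. Those of the other 5 genes lay between −0.59 (Bmp6) and 0.38 (Smad7), and the adjusted p-values of the 10 ran from 0.717 to 0.981. Under CCl4 the values lay between −0.59 ± 0.54 (Hamp) and 0.51 ± 0.74 (Bmp6), all with an adjusted p of 1. The Hamp value under CCl4 was −1.40 without ΔEGFR CCl4 replicate 1, −0.25 without WT CCl4 replicate 1 and −0.26 without ΔEGFR CCl4 replicate 4. The test of the interaction gave values from −1.21 (Hamp) to 1.10 (Bmp6), also with an adjusted p of 1. No gene of the 10 was called by edgeR in any of these 3 comparisons, and neither was any other gene (0% of 17975 in each). Over all genes, 1197, 411 and 568 had an unadjusted p under 0.05 in the 3 comparisons, none of the 10 in the first pair and Bambi in the interaction, while DESeq2 called 9, 1 and 2 genes and limma on log2(TPM + 1) called 0, 0 and 1. The 95% intervals leave room for sizeable differences, such as −0.48 to 1.71 for Hamp in mineral oil, so they do not show that the genotypes were alike.

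Other genes of the BMP pathway were taken from lists. Of 15 tested receptors, SMADs and their regulators, 1 rose and 3 fell with CCl4 in WT (median log2 fold change −0.31, beside −0.03 over all genes). Over all genes tested, edgeR called 5.31% higher and 7.20% lower in WT, and 1.77% higher and 2.38% lower in ΔEGFR. The counts of this list and of each list below stand beside these shares. Acvr2a, a type II receptor that binds BMPs and activins, fell from 22.9 ± 3.8 to 12.5 ± 1.2 CPM (log2 fold change −0.88 ± 0.16, edgeR adjusted p = 0.00691). Its relative Acvr2b fell by 1.04 ± 0.31 on the log2 scale (edgeR adjusted p = 0.0444). The ubiquitin ligase Smurf2, which marks SMADs and receptors for removal, measured −0.46 ± 0.12 (edgeR adjusted p = 0.024), a small fall. On the scale of log2(TPM + 1) Smurf2 was 0.03, where the median over all genes was 0.38. Fkbp1a, which binds type I receptors and holds them inactive, rose by 0.85 ± 0.23 (edgeR adjusted p = 0.0282). In ΔEGFR 0 of the 15 rose and 1 fell, Acvr2a, by 0.57 ± 0.15 on the log2 scale (edgeR adjusted p = 0.047). On log2(TPM + 1) Acvr2a was 0.03 in ΔEGFR, where the median over all genes was also 0.38.

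Of 13 tested ligands and antagonists reported here, 2 rose in WT (median 0.71). Nbl1, a secreted BMP antagonist of the DAN family, rose from 0.0865 ± 0.0841 to 1.53 ± 0.567 CPM (log2 fold change 4.01 ± 0.72, edgeR adjusted p = 0.00645). The mineral oil level was very low, so the size is uncertain, and it ran from 1.27 to 5.06 over 19 alternatives. Fstl1, a secreted glycoprotein of the follistatin family, rose from 1.1 ± 0.92 to 10 ± 7.17 CPM (3.17 ± 0.79, edgeR adjusted p = 0.0228), and stellate cells are a known source of it. Beside these, stellate cell markers summed to 37 to 172 CPM in WT mineral oil and 130 to 412 in WT CCl4, none of the 10 was at 0 in any library, and 1 of them, Col1a1, was called higher. The part of those cells in Nbl1 and Fstl1 was not tested. In ΔEGFR Nbl1 rose (3.19 ± 0.67, edgeR adjusted p = 0.0272), none of the other 12 passed and the median was 0.47.

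Of 7 other BMP target genes tested, Hey1, a transcription factor also driven by Notch, rose in WT from 0.297 ± 0.328 to 2.89 ± 1.49 CPM (3.28 ± 0.96, edgeR adjusted p = 0.0404). The other 6 did not pass, among them Id2 (−0.15 ± 0.37), Id3 (0.55 ± 0.52) and Atoh8 (0.50 ± 0.62). In ΔEGFR 0 of the 7 passed in either direction (median −0.40).

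Of 10 partners of the iron sensors, 3 fell and 0 rose in WT (median −0.30). These were Pcsk7 (−0.49 ± 0.11, edgeR adjusted p = 0.0137), a proprotein convertase, B2m (−0.60 ± 0.17, adjusted p = 0.0353), the light chain that HFE needs to reach the surface, and Furin (−0.81 ± 0.23, adjusted p = 0.0378), which cuts prohepcidin and hemojuvelin. Hfe (0.14 ± 0.16, adjusted p = 0.598), Hjv (−0.32 ± 0.41, adjusted p = 0.634) and the transferrin receptor Tfrc (0.39 ± 0.20, adjusted p = 0.224) did not pass. In ΔEGFR B2m fell by 0.70 ± 0.15 on the log2 scale (edgeR adjusted p = 0.0317) and was the only 1 of the 10 called (median −0.26).

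Of 24 genes of iron transport and storage, 1 rose and 2 fell in WT (median 0.01), where 12.5% of all genes tested were called. Slc39a14, an importer of non-transferrin iron, fell from 353 ± 91 to 168 ± 53.4 CPM (−1.07 ± 0.26, edgeR adjusted p = 0.0185), and Ireb2, the iron-regulatory protein IRP2, fell from 86.2 ± 20.4 to 44.1 ± 1.05 CPM (−0.97 ± 0.26, adjusted p = 0.0307). Cybrd1, a ferric reductase known from the duodenum, was called higher in both genotypes (edgeR adjusted p = 0.00638 in WT and 0.0178 in ΔEGFR) at very low levels, 0 to 0.0223 CPM in WT mineral oil against 0.254 to 0.415 CPM in WT CCl4, so no fold is given. The ferritin chains Fth1 (0.84 ± 0.31, adjusted p = 0.0944) and Ftl1 (0.79 ± 0.26, adjusted p = 0.0657) and ferroportin, Slc40a1 (0.86 ± 0.44, adjusted p = 0.216), did not pass in WT. Cybrd1 was the only 1 of the 24 called in ΔEGFR (median −0.14).

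The IL-6 and STAT3 arm is the inflammatory input to hepcidin. Of its 21 genes 5 fell with CCl4 in WT, 0 rose and 19 had a negative log2 fold change (median −0.85, beside −0.03 over all genes, of which 7.20% were called lower). The 8 hepatocyte markers were negative as well (median −0.88, 3 of 8 called lower), and their part in this list was not tested. Crp, an acute phase protein, fell from 313 ± 69.5 to 140 ± 51.4 CPM (−1.16 ± 0.27, edgeR adjusted p = 0.0165), and Lifr, a receptor of the IL-6 family, fell with a log2 fold change of −2.04 ± 0.48 (adjusted p = 0.0189). Il1r1, the IL-1 receptor, fell by 1.59 ± 0.40 (adjusted p = 0.0226), and Stat3 itself fell from 223 ± 14.3 to 141 ± 26.5 CPM (−0.67 ± 0.17, adjusted p = 0.0256). The fifth was the IL-6 receptor Il6ra (−1.13 ± 0.32, adjusted p = 0.0375). The acute phase gene Saa1 ranged from 81.3 to 6810 CPM within WT mineral oil and from 26.1 to 512 CPM in WT CCl4 and did not pass (−3.49 ± 1.48, adjusted p = 0.138). In ΔEGFR 2 of the 21 fell, Stat3 (−0.79 ± 0.16, edgeR adjusted p = 0.0229) and Crp (−1.15 ± 0.24, adjusted p = 0.0268), 0 rose and 17 were negative (median −0.79).

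The genes named from these lists were up to 4 called genes per list, with Il6ra and the genes that did not pass chosen after their values were seen. Of 17 such calls in WT, 3 held with each of the 7 libraries left out in turn (Acvr2a, Nbl1 and Cybrd1). The number that remained was 17, 7, 6 and 15 without WT mineral oil replicates 1 to 4, and 11, 5 and 3 without WT CCl4 replicates 1 to 3. Of 6 such calls in ΔEGFR the number was 2, 3, 6 and 0 without ΔEGFR mineral oil replicates 1 to 4, and 0, 0, 1 and 5 without ΔEGFR CCl4 replicates 1 to 4. The genotype comparisons and the interaction called 0 genes of any list. Several of these calls changed with the scaling. Without a scaling factor 9 of the 17 WT calls held, and 7 of the 16 with a value did with limma on log2(TPM + 1), the same 7 being called under both (Crp, Fkbp1a, Fstl1, Hey1, Il1r1, Lifr and Nbl1). Not called under either were Acvr2a, Acvr2b, Smurf2, Pcsk7, B2m, Furin, Ireb2 and Stat3. With CCl4 the median over all genes on log2(TPM + 1) was itself 0.38 in each genotype, so values near 0 lie below it. On that scale the WT values were −0.04 for Pcsk7 (adjusted p = 0.892), −0.09 for B2m (0.794), −0.21 for Stat3 (0.477) and −0.32 for Furin (0.327). In ΔEGFR 3 of 6 held without scaling (Crp, Cybrd1 and Nbl1) and 1 of the 5 with a value on log2(TPM + 1) (Nbl1), where B2m was −0.14 (0.614) and Stat3 −0.23 (0.379).

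Across the 15 libraries the genes most like Hamp, by Pearson r of log2 CPM among 9731 genes, were Ddx41 (0.86), Ric8a (0.85), Zfp622 (0.83), Cct6a (0.83) and Wdr55 (0.81). Those most like Id1 were Plk2 (0.88), Enc1 (0.88), Ccnd1 (0.86), Tmem43 (0.85) and Dapk2 (0.85). Those most like Bmp2 were Adgrf5, Oit3, Adgrl4, Flt1 and Sema6a, each at 0.99, of which Oit3 is in the endothelial list above. The libraries share depth and cell content, so these values are descriptions.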

How the data were processed

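RNA was isolated with RNA STAT 60 and sequenced after KAPA stranded mRNA preparation, per the labels' protocols. Reads were handled with STAR 2.7.8a and RSEM 1.3.0 on GRCm39, per the submitters' processing notes; annotation release and strand setting are not given in the sources used here. The deposited files hold RSEM expected counts and TPM per Ensembl gene. Gene names came from a table joined by Ensembl ID (52029 matched, 91.4%). The replicates were numbered in order of deposit, and no 2 libraries were identical.

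Expected counts were rounded and fitted with edgeR 4.0.16 (R 4.3.3): filterByExpr (minimum count 10, minimum total 15), TMM factors (0.745 to 1.34), 1 mean for each of 4 groups over all 15 libraries, robust quasi-likelihood, two-sided, Benjamini-Hochberg over 17975 genes. The edgeR biological coefficient of variation came to 50.9%. Log2 CPM used a prior count of 2. Alternatives used DESeq2 1.42.0, limma 3.58.1, other scalings and filters, covariates and left-out libraries; the 2 on depth were chosen after seeing the data. Permutations and alignment used SciPy 1.17.1 and Biopython 1.88. The tests were tested on simulated data. The 10 genes, the lists and the rule for naming list genes (the called genes, up to 4 per list by adjusted p) were chosen with earlier results of these data known. A gene of the ligand and antagonist list is not reported here and is left out of the counts and medians of that list.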

Additional observations from a re-analysis of the deposited data

Results flagged for a closer look

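In each of 3 genes, 1 library of a group of 4 lay far from the other 3. Hamp2 was 16.9 CPM in ΔEGFR mineral oil replicate 4, where the nearest library of that group had 2.49 CPM. Bmp2 was 67.7 CPM in WT mineral oil replicate 1, where the nearest had 13.2 CPM, and this library also had the highest sum of endothelial markers (801 CPM). Id1 was 27.7 CPM in ΔEGFR mineral oil replicate 3, where the nearest had 11.1 CPM. These were 3 of 30 groups examined. The rule marks about 1 in 20 groups of independent, normally distributed values. It was applied here to CPM without a log, in groups of the same libraries for each gene, so that rate does not carry over. Whether 3 of 30 is more than chance gives was not tested. The group of WT CCl4, with 3 libraries, was too small for the rule.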

How the results depend on the processing

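With no scaling between libraries the overall median moved to 0.40 in WT and 0.44 in ΔEGFR for CCl4, and on log2(TPM + 1) to 0.38 in both, so directions are read relative to those shifts. The CCl4 call of Bambi in WT held in 18 of 19 alternatives (adjusted p 1.23e-06 to 0.0796) and was lost among shallow WT libraries alone, a fit with fewer samples. Tfr2 was called in 9 of 19 (adjusted p 0.00687 to 0.153) and Tmprss6 in 10 of 19 (0.00169 to 0.107), both negative throughout. With CCl4 in WT the number called was 3 (12.5% of all genes). It was 1 with only the groups compared (3.33%), 1 with a covariate for markers of other cells (7.92%) and 0 among shallow WT libraries (0%). With a library left out it was 1 to 4, beside 3.12% to 28.7% of all genes (28.7% without WT mineral oil replicate 1, where it was 4). It was 4 with DESeq2 (11.8%) and without scaling (15.8%), where Smad6 was added. The DESeq2 shares are of all genes with a p-value, without a low-count filter, and may understate those among genes that could be called. On log2(TPM + 1) the number called was 3 (19.8%), where Id1, Smad6 and Bambi were called and Tfr2 and Tmprss6 were not. In ΔEGFR it was 0 (4.15% of all genes). It was 3 with DESeq2 (7.84%), 1 with genes kept at 1 CPM in 3 libraries (4.84%) and 2 with only the groups compared (7.57%). It was 1 with limma on log2(TPM + 1) (14%), 1 on log2(TPM + 0.1) (12.8%) and 2 with a covariate for depth class (9.14%). With a library left out it was 0 to 2, beside 0.415% to 5.43% of all genes. None of the 10 genes was called for genotype or interaction in any alternative run. 

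Among estimates that were not called, some changed sign, and the cause was not tested. For CCl4 in WT, Hamp2 was −0.09 with the depth covariate and −1.05 among shallow libraries, Bmp2 was 0.61 on log2(TPM + 1), 0.83 on log2(TPM + 0.1), 0.31 with the depth covariate and 1.5 among shallow libraries, and Bmp6 was 0.16, 0.40 and 0.29 on the 2 TPM scales and among shallow libraries. For CCl4 in ΔEGFR, Hamp was 0.18 without scaling, and Hamp2 was 0.32 without scaling, 1.01 and 1.11 on the TPM scales and 1.5 with the other-cell covariate. With that covariate Bmp2 was −0.48, Bmp6 −0.56, Id1 −0.02 and Smad7 −0.08. For genotype in mineral oil, Hamp2 was −0.28 and −0.33 on the TPM scales, −0.44 with the other-cell covariate and −0.63 with the depth covariate, Bmp2 was 0.10 and Bmp6 0.06 with the other-cell covariate, and Tfr2 was 0.40 with the depth covariate. For genotype under CCl4, Hamp2 was 0.01 on log2(TPM + 0.1) and Smad6 −0.01. With the depth covariate Bmp2 was −0.47, Tfr2 0.31, Smad6 −0.15 and Smad7 0.02. Tfr2 was 0.01 without scaling and 0.01 on each TPM scale, and Smad7 was 0.00 with upper-quartile factors, 0.05 without scaling and 0.00 on log2(TPM + 1). For the interaction, Hamp2 was 0.27 and 0.34 on the TPM scales, 0.05 with the other-cell covariate and 0.04 with the depth covariate, where Tfr2 was −0.10 and Tmprss6 −0.03. On the TPM scales Smurf2 in WT was 0.03 and 0.03, and Acvr2a in ΔEGFR was 0.03 and 0.04.

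With a library left out, ranges that crossed 0 were, for CCl4 in WT, −0.72 to 1.08 (Hamp2), −1.17 to 1.25 (Bmp2) and −0.94 to 0.57 (Bmp6). For CCl4 in ΔEGFR they were −1.16 to 0.03 (Hamp), −0.59 to 1.47 (Hamp2) and −0.07 to 0.29 (Smad7). For genotype in mineral oil they were −1.34 to 0.76 (Hamp2), −1.20 to 0.88 (Bmp2), −0.92 to 0.59 (Bmp6), −0.30 to 0.00 (Tfr2) and −0.14 to 0.16 (Tmprss6). Under CCl4 they were −0.84 to 0.96 (Hamp2), −0.01 to 1.15 (Bmp2), −0.32 to 0.38 (Tfr2), −0.01 to 0.38 (Tmprss6), −0.23 to 0.65 (Id1), −0.13 to 0.25 (Smad6) and −0.18 to 0.17 (Smad7). For the interaction they were −1.22 to 0.93 (Hamp2), −0.56 to 1.92 (Bmp2), −0.08 to 1.42 (Bmp6), −0.23 to 0.47 (Tfr2) and −0.08 to 0.34 (Tmprss6).

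The WT groups held 1 deep library each, so a comparison within deep WT libraries had no replicates. Leaving out ΔEGFR CCl4 replicate 3 left only deep libraries in ΔEGFR (0 of the 10 genes and 0.714% of all genes called with CCl4). With 3 or 4 libraries a group and this spread, the intervals of Hamp2, Bmp2 and Bmp6 were wide. Counts without molecular identifiers are not independent molecules. No paired analysis was possible because the labels link no library of a group to a library of another.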
